A study of Xenopus laevis x Xenopus muelleri with 6 samples.

Results

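Solute carriers, ion pumps, channels and ATP-binding cassette proteins were followed in the testes of sexually mature frogs from a cross of Xenopus laevis females with Xenopus muelleri males. Members were the probe sets with exactly 1 gene symbol whose symbol, without its .L or .S ending, began with slc and a digit, atp1a, atp1b, atp2, atp6, aqp, kcn, cacn, scn and a digit, clcn, clic, fxyd, trp and c, m or v, vdac, or abc with a letter from a to g and a digit. The rule found 169 of 11485 probe sets, with 150 distinct symbols: 98 probe sets of solute carriers, 31 of ion pumps, 9 of ATP-binding cassette proteins, and 31 of channels and their regulators. By copy, 108 probe sets carried an L symbol, 56 an S symbol and 5 neither; X. laevis keeps many genes as L and S copies, one from each ancestral genome. The rule also takes genes whose product carries no solute itself, such as abce1 and the abcf genes of ribosomes and translation, the scaffold gene slc9a3r1, and accessory subunits or regulators of pumps, carriers and channels.

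The samples were 3 of testis from sex-reversed animals and 3 of normal testis, 1 per array and 6 in all, labelled as biological replicates within each group. Each sample is called a testis below, but the labels do not say whether it held 1 testis, a part or several. Both groups came from the same cross, X. laevis of the Cape of South Africa by X. muelleri of Swaziland, and were raised from eggs to adulthood under the same conditions. The sources used here do not give the method of sex reversal, the genetic sex or the age of the animals. The labels do not say that the testes of a group came from different animals. The p-values therefore cover only the spread among these samples, which may not be the spread between animals. Each value is a log2 expression value made by the authors with RMA, and every difference is sex-reversed minus normal on the log2 scale, so that a difference of 1 is 2-fold. A value depends on how well the probes bind as well as on the amount of RNA, and X. laevis probes may bind X. muelleri alleles less well, so the order of probe sets by value is not an order of RNA amounts. In whole testis, fewer cells of a type and less RNA per cell cannot be told apart.

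Transport proteins move ions and small molecules across membranes that would otherwise stop them. Pumps spend ATP: the sodium-potassium pump keeps the ion gradients of the cell, calcium pumps clear calcium from the cytosol, and the vacuolar proton pump acidifies lysosomes, secretory vesicles and, in sperm, the acrosome. Solute carriers use those gradients or simple exchange to bring in amino acids, sugars and metals and to supply mitochondria and the Golgi apparatus, while channels and porins let ions, water or metabolites pass down their gradients. In the testis, Sertoli cells pass nutrients to the germ cells, and sperm rely on ion channels and exchangers for motility.

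The tissue label was checked against marker genes. The germ cell gene ddx4.L, an RNA helicase, lay between 12.35 and 12.75 on all 6 arrays and dazl.L, an RNA-binding protein of germ cells, between 11.69 and 12.05, beside a highest value of any probe set of 14.42. Of 18 germ cell marker genes 11 were measured (13 probe sets, 5 higher and 8 lower), and 9 of the 13 had a mean above the median of all probe sets. The groups did not overlap for tekt1.L (mean 10.25), lower by -0.43, and spag6.L (mean 8.78), higher by 0.54. They overlapped for ccna1.S (mean 10.09) and tekt4.S (mean 9.68), at -0.21 and 0.58. By contrast, odf3.S, ropn1l.L, meig1.S and odf3.L had means of 2.67, 3.05, 3.13 and 3.10. Of 12 Sertoli and steroidogenic marker genes 5 were measured (8 probe sets, 3 higher and 5 lower, median -0.36), and 3 of the 8 had a mean above the median of all probe sets. The gene sox9.S had a mean of 6.62 and differed by -0.24 with overlapping groups, while gata4.S, dhh.S and dhh.L had means of 2.97, 3.17 and 3.33. For fshr.L, the receptor gene for follicle-stimulating hormone, 1 probe set was lower in sex-reversed testis without overlap, at -0.65. Another probe set of fshr.L lay at 0.096 with overlap. The brighter probe set of the androgen synthesis gene cyp17a1.L stood at 5.17 on sex-reversed replicate 3 against 9.96 to 11.34 on the other arrays. The other probe set of cyp17a1.L stood at 5.23 on sex-reversed replicate 3 against 8.14 to 8.93 on the other arrays. Muscle markers, skeletal and smooth together (11 of 12 genes measured, 17 probe sets), gave a higher mean in sex-reversed testis for 13 of 17 probe sets. Their median log2 difference was 0.50, and over all probe sets 51.3% had a higher mean. Their linear values summed to 8237 to 11432 on the sex-reversed and 6071 to 7698 on the normal arrays. The brightest, acta2.L and myl9.L, had means of 12.12 and 10.09 and differed by 0.55 and 0.58, both with overlapping groups. The skeletal muscle gene acta1.S, at a mean of 3.18, differed by 0.070. The groups did not overlap for tnnc1.L, higher by 0.88 at a mean of 6.27. They overlapped for mylpf.L, at 0.82 and a mean of 6.30. Probe sets of ckm.L, at means of 8.86, 7.03 and 3.34, differed by 0.37, 0.50 and -0.27 with overlapping groups. In all, 4 of the 17 muscle probe sets had a lower mean in sex-reversed testis. Of 16 red blood cell genes 8 were measured and of 14 kidney genes 3. The linear values of the blood genes summed to 262 to 343 on the sex-reversed and 294 to 675 on the normal arrays. The brightest blood probe set was that of gata1.L, at a mean of 6.51 with overlapping groups. The linear values of the kidney genes summed to 96.4 to 163 on the sex-reversed and 102 to 141 on the normal arrays. Of 9 leukocyte genes 7 were measured (8 probe sets, 6 higher and 2 lower, median 0.11), with cd74.L brightest at a mean of 9.26. Their linear values summed to 488 to 1275 on the sex-reversed and 574 to 1336 on the normal arrays. None of these marker probe sets passed the test.

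No transport probe set passed between sex-reversed and normal testis (0 of 169, limma, Benjamini-Hochberg adjusted p of 0.05, n = 3 per group), beside 0 of all 11485 probe sets (0%). The lowest adjusted p among the members in limma was 0.997. An unadjusted p under 0.05 was reached by 7 of 169 members, 4.14% against 4.42% of all probe sets; of these, 3 had a positive and 4 a negative difference. In means, 80 members were higher and 89 lower (47.3% higher, against 51.3% of all probe sets), and their median log2 difference was -0.018, beside 0.0089 over all. A difference of at least 1 in either direction was seen for 4 members, 2.37% against 2.56% of all probe sets. For 98 members (58%) the 95% interval stayed inside 2-fold either way, against 62.5% of all probe sets, so for the others a 2-fold difference was inside what these arrays leave possible.

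Transport genes varied between samples of the same group by about as much as between the groups. The difference between group means was smaller than the pooled SD within groups for 133 of 169 members (78.7%), against 71.8% of all probe sets. Their median range over the 6 arrays was 1.02 log2 units, against 0.92 for all probe sets, and the median pooled SD was 0.39 against 0.34. The root mean square log2 difference over the members averaged 0.721 between a sex-reversed and a normal array (range 0.612 to 0.798) and 0.761 between arrays of 1 group (range 0.635 to 0.864). No array held most of the extremes: the highest of the 6 values fell on an array for 21 to 36 members and the lowest for 23 to 32. With 1 array left out, the sign of the difference changed for 89 of the 169 members.

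**Figure D1:**
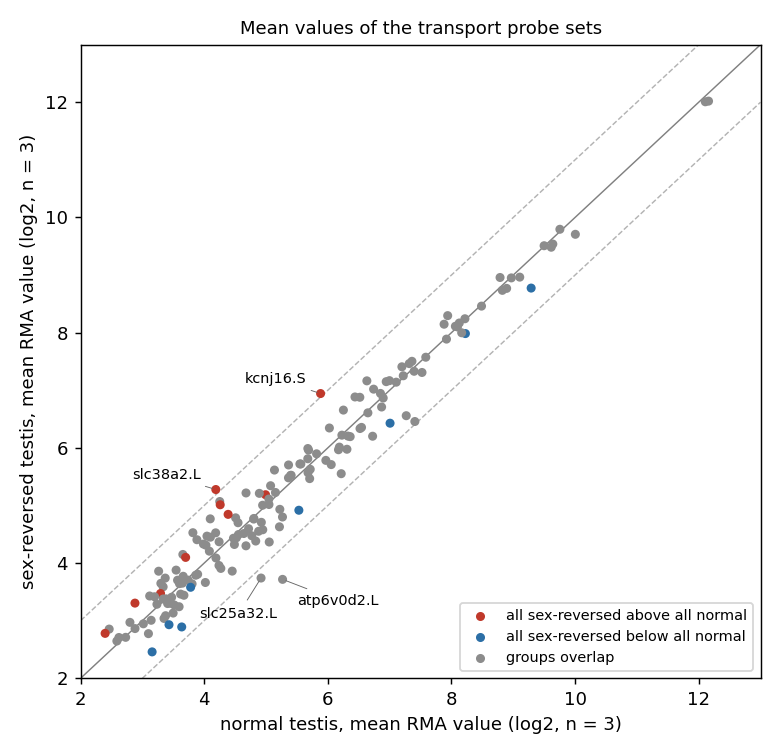
Mean log2 RMA value of each of the 169 transport probe sets in sex-reversed testis (vertical axis) against normal testis (horizontal axis), n = 3 each; the solid line marks equal means and the dashed lines a 2-fold difference. The 4 labelled probe sets lie at or beyond the dashed lines, and the coloured points are the 17 whose groups did not overlap.

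The 2 highest signals among transport genes were those of slc25a5.L and vdac2.S, and the next 18 genes belonged to many families. Over all 6 arrays, 22 of 169 members (13%) had a mean of at least 8, against 14% of all probe sets, 2 members had a mean of at least 10, and 47 (27.8%) had one under 4, against 29.9%. The array medians were 5.25 to 5.31. At the top stood slc25a5.L, an ADP/ATP carrier of the mitochondrial inner membrane, at 11.87, 12.11 and 12.07 in sex-reversed testes, against 11.97, 12.30 and 12.21 in normal testes. The groups overlapped, and the difference was -0.14 (95% interval -0.63 to 0.35). Next to it, vdac2.S, a porin of the mitochondrial outer membrane, gave 11.67, 12.15 and 12.21 in sex-reversed testes, against 12.29, 12.07 and 11.96 in normal testes. Here too the groups overlapped, at a difference of -0.099 (95% interval -0.65 to 0.45), with the lowest value on sex-reversed replicate 1.

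Below these 2, the next 18 genes by mean signal had means between 7.90 and 9.86. They included 6 genes of the vacuolar proton pump (atp6v0c.L, atp6v1e1.L, atp6v1d.L, atp6ap1.2.S, atp6v1b2.S and atp6v1c1.L). The neutral amino acid carrier gene slc43a2.L read 10.20, 10.04 and 9.14 in sex-reversed testes, against 9.48, 10.21 and 9.57 in normal testes, with overlapping groups and a difference of 0.04 (95% interval -0.77 to 0.85). A similar signal came from slc31a2.S, which encodes a copper transport protein, at 9.20, 9.68 and 9.64 in sex-reversed testes, against 9.67, 9.04 and 9.79 in normal testes, a difference of 0.01. Both were thus measured well above the array medians in every testis, and neither separated the groups. The calcium pump gene of the plasma membrane, atp2b1.L, gave 8.82, 8.66 and 9.37 in sex-reversed testes, against 9.53, 8.81 and 8.56 in normal testes, a difference of -0.018. The ribosome factors abcf2.L, abce1.S and abcf1.L had means of 9.55, 9.03 and 8.10 and differences of -0.13, -0.14 and 0.0029. Other probe sets of abce1.S, with means of 8.87 and 4.76, differed by 0.17 and -0.37, with overlapping groups. The Golgi carriers slc35a2.L, for UDP-galactose, and slc35b2.S, for the sulfate donor PAPS, had differences of 0.023 and -0.032. Another porin gene, vdac3.L, read 8.18, 8.09 and 8.17 in sex-reversed testes, against 8.35, 7.32 and 7.97 in normal testes. Its difference of 0.27 rested on normal replicate 2, without which it was -0.014. The other members of this top group, slc37a3.L, slc37a4.L and slc29a1.S, are described with their families.

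**Figure D2:**
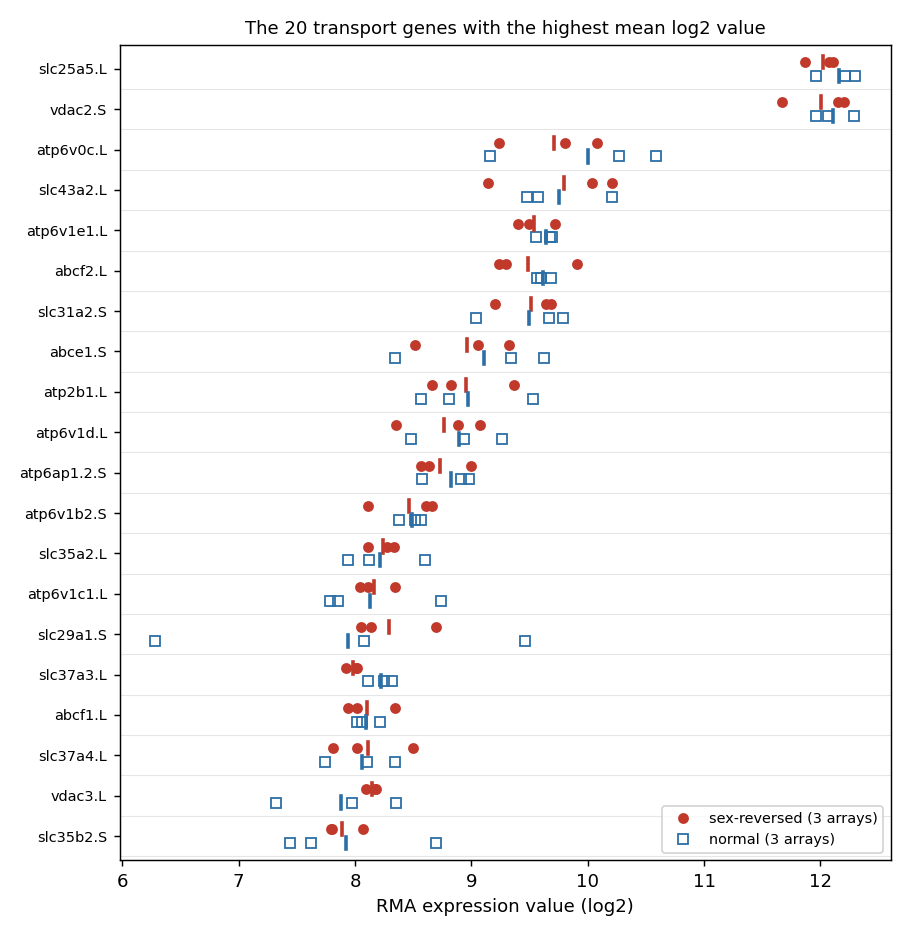
Log2 RMA values on each array for the 20 transport genes with the highest mean (the probe set with the highest mean where a gene has several): filled circles are the 3 sex-reversed and open squares the 3 normal testes, and short bars are group means. The groups overlap for 19 of the 20 genes, all but slc37a3.L, and slc25a5.L and vdac2.S stand apart above 11.

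The vacuolar proton pump was covered best, with 22 probe sets of 16 symbols from its membrane part V0, its ATP-splitting part V1 and its accessory proteins. None passed in either direction, as among all probe sets. Of them 8 had a higher mean in sex-reversed testis and 14 a lower one, and the median log2 difference was -0.078, and 15 of the 22 had a mean above the median of all probe sets. The count depended on single arrays: without sex-reversed replicate 1, 11 of 22 had higher means and the median was 0.00613. Without normal replicate 2, 10 of 22 had higher means and the median was -0.016. Among V1 subunits, the stalk subunit gene atp6v1e1.L gave 9.40, 9.72 and 9.50 in sex-reversed testes, against 9.69, 9.67 and 9.56 in normal testes, a difference of -0.10 (95% interval -0.57 to 0.37). The rotor subunit gene atp6v1d.L and the nucleotide-binding B subunit gene atp6v1b2.S differed by -0.12 and -0.026. The catalytic A subunit gene atp6v1a.L varied more, at 6.59, 7.02 and 7.89 in sex-reversed testes, against 7.68, 5.65 and 7.66 in normal testes. Its lowest value was normal replicate 2 and its difference 0.17 (95% interval -1.22 to 1.56). The B1 subunit gene atp6v1b1.L, which in mammals serves acid-secreting epithelia, differed by 0.67 (95% interval -0.41 to 1.75) with overlapping groups.

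In the membrane part, atp6v0c.L encodes the proteolipid of the rotating ring and had 3 probe sets, whose differences were -0.30, -0.52 and -0.17. One of them gave 8.77, 8.65 and 8.90 in sex-reversed testes, against 8.97, 9.72 and 9.18 in normal testes, so that each sex-reversed testis lay below each normal one, with a 95% interval of -1.11 to 0.074. The brightest of them, whose name ends in _x_at and so marks possible cross-hybridisation, overlapped, at 9.24, 9.81 and 10.08 in sex-reversed testes, against 10.27, 10.59 and 9.16 in normal testes. For atp6v0d1.L, which links the ring to the stalk, the probe sets lay at -0.19 and 0.27. The largest difference of any transport probe set was that of its relative atp6v0d2.L, at 4.28, 3.43 and 3.44 in sex-reversed testes, against 6.19, 3.18 and 6.43 in normal testes. Normal replicates 1 and 3 were high while normal replicate 2 was the lowest of all 6, so the groups overlapped. The difference was -1.55 (95% interval -3.44 to 0.34; limma adjusted p = 0.997, n = 3 per group), -0.97 when normal replicate 3 was left out and -2.59 when normal replicate 2 was. The accessory genes atp6ap1.2.S and atp6ap2.L, the second also known as the prorenin receptor gene, differed by -0.089 and -0.16, and the S copy atp6ap2.S by -0.13.

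The sodium-potassium pump was represented by its beta subunits, which bring the catalytic alpha subunit to the cell surface; no probe set carried an alpha subunit gene as its only symbol. All 4 probe sets, of 3 symbols, were lower in sex-reversed testis by their means, and none passed. Their median log2 difference was -0.55, beside 0.0089 over all probe sets, of which 51.3% were higher. The probe set of atp1b3.L read 6.24, 6.54 and 6.50 in sex-reversed testes, against 6.97, 6.71 and 7.34 in normal testes. All sex-reversed values lay below all normal ones, at a difference of -0.58 (95% interval -1.14 to -0.022; limma adjusted p = 0.997, n = 3 per group). The groups of its S copy overlapped: 1 probe set of atp1b3.S gave 6.28, 5.93 and 6.39 in sex-reversed testes, against 6.39, 7.61 and 6.18 in normal testes, a difference of -0.52. Another probe set of atp1b3.S lay at -0.19, at 0.23 without normal replicate 2 and at 0.11 without sex-reversed replicate 2. Its name ends in _s_at and otherwise matches that of the atp1b3.L probe set, so they may not be separate measures. For atp1b1.S the values were 5.70, 7.25 and 6.73 in sex-reversed testes, against 7.0, 7.26 and 7.54 in normal testes, a difference of -0.71 (95% interval -1.64 to 0.22), and -0.28 without sex-reversed replicate 1. The pump regulator fxyd2.S, best known from kidney, spread over 6.08, 4.84 and 3.87 in sex-reversed testes, against 5.03, 5.88 and 4.76 in normal testes, so its extremes, high and low, were both sex-reversed testes. It is also on the list of kidney markers. Its difference was -0.29 (95% interval -1.59 to 1.01).

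Calcium pumps gave 5 probe sets, 2 higher and 3 lower in sex-reversed testis, all with overlapping groups, as for most probe sets. The pump gene of the endoplasmic reticulum in most tissues, atp2a2.S, read 5.53, 5.49 and 5.56 in sex-reversed testes, against 5.98, 5.17 and 5.06 in normal testes, a difference of 0.12 (95% interval -0.54 to 0.78). The pump gene of fast skeletal muscle, atp2a1.S, had 2 probe sets with means of 4.14 and 4.09, below the array medians, and differences of -0.10 and -0.36. These 2 are themselves on the list of muscle markers, whose median difference was 0.50, and lay on the other side of 0. That list mixes skeletal and smooth muscle genes, so its median is not one of skeletal muscle alone. The plasma membrane pump gene atp2b4.L differed by 0.28, and the exchangers slc8a1.S, which trades sodium for calcium at the plasma membrane, and slc8b1.S, its mitochondrial relative, by 0.71 (95% interval -0.16 to 1.58) and 0.31. Muscle also uses slc8a1.S; the part of muscle cells in its value was not tested.

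Carriers of the slc25 genes (15 probe sets) were 6 higher and 9 lower in means, with a median of -0.14. The median was 0.14 without normal replicate 2. They belong mainly to the mitochondrial inner membrane, but both copies of the peroxisomal carrier gene slc25a17 are among them. The phosphate carrier gene slc25a3.L, which supplies ATP synthase, gave 5.11, 5.17 and 5.28 in sex-reversed testes, against 5.05, 4.89 and 5.03 in normal testes. Its groups did not overlap although the difference was only 0.19 (95% interval -0.26 to 0.65). The other ADP/ATP carrier gene measured, slc25a4.L, had a mean of 3.64 and differed by 0.13. Several carriers spread widely between samples of 1 group. For slc25a32.L, a folate and FAD carrier gene in mammals, the values were 2.72, 2.96 and 5.54 in sex-reversed testes, against 6.66, 5.26 and 2.84 in normal testes. Low and high values occurred in both groups, and the difference was -1.18 with a 95% interval of -3.66 to 1.30 (-0.31 when normal replicate 1 was left out, -2.08 when sex-reversed replicate 3 was and -2.22 when normal replicate 3 was). The S-adenosylmethionine carrier gene slc25a26.L ranged likewise, at 3.51, 4.36 and 5.62 in sex-reversed testes, against 4.83, 5.63 and 3.20 in normal testes, with a difference of -0.059. The 2 copies of the oxoglutarate carrier gene, slc25a11.L and slc25a11.S, differed by 0.82 (95% interval -0.45 to 2.08) and -0.22 (95% interval -1.56 to 1.13). Normal replicate 3 was the lowest array for slc25a11.L, at 3.18, and normal replicate 2 the highest for slc25a11.S, at 6.29. In the outer membrane, a probe set of the porin gene vdac1.S read 4.76, 5.19 and 4.80 in sex-reversed testes, against 5.35, 5.56 and 5.69 in normal testes. All sex-reversed values lay below all normal ones, at -0.61 (95% interval -1.14 to -0.093; limma adjusted p = 0.997, n = 3 per group), while the other probe set of vdac1.S, at a mean of 3.56, overlapped and differed by -0.23.

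Amino acid carriers leaned to higher values in sex-reversed testis without any of them passing. Of 13 probe sets 10 had a higher mean in sex-reversed testis and 3 a lower one, and the median log2 difference was 0.33, beside 51.3% higher and a median of 0.0089 over all probe sets. Sex-reversed replicate 1 stood highest, with a mean deviation over the 13 of 0.49, against 0.11 and -0.17 on the other sex-reversed arrays and -0.13, -0.083 and -0.22 on the normal ones. Without it 8 of 13 were higher and the median was 0.20. Leaving out normal replicate 3 instead also gave 8 of 13 higher, with a median of 0.36. The largest member was slc38a2.L, a sodium-coupled carrier of small neutral amino acids, at 5.95, 4.84 and 5.04 in sex-reversed testes, against 4.15, 3.98 and 4.43 in normal testes. Each sex-reversed testis lay above each normal one, and the difference was 1.09 (95% interval 0.33 to 1.85; limma adjusted p = 0.997, n = 3 per group), or 0.75 without sex-reversed replicate 1. The groups also separated for slc43a1.L, a carrier of branched-chain amino acids, at 4.78, 4.96 and 4.79 in sex-reversed testes, against 4.63, 4.23 and 4.30 in normal testes, a difference of 0.46 (95% interval -0.035 to 0.95). They separated for slc6a14.2.L, a relative of the broad neutral and cationic amino acid carrier, at 3.08, 2.63 and 2.63 in sex-reversed testes, against 2.31, 2.46 and 2.42 in normal testes. Its values lay close to the lowest of each array (1.93 to 2.09), so its difference of 0.38 concerns a signal near the bottom of the scale. The light and heavy chains of the large neutral amino acid exchanger, slc7a5.L and slc3a2.L, differed by 0.53 (95% interval -0.26 to 1.33) and 0.32 (95% interval -0.23 to 0.87). For slc7a5.L sex-reversed replicate 1 was the highest of the 6 arrays, at 7.82, and normal replicate 3 the lowest, at 6.25. The glutamine carrier gene slc38a5.S differed by 0.54 and the exchanger gene slc7a8.L by 0.48, both with overlapping groups. Without sex-reversed replicate 1 slc38a5.S lay at 0.10, and without sex-reversed replicate 2 slc7a8.L lay at 0.11. On the lower side stood slc7a9.L, the light chain of the cystine exchanger, at -0.33, slc1a5.L at -0.082 and the GABA carrier gene slc6a13.L at -0.037, while slc1a5.S, the other copy of the glutamine carrier gene slc1a5, lay at 0.33.

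**Figure D3:**
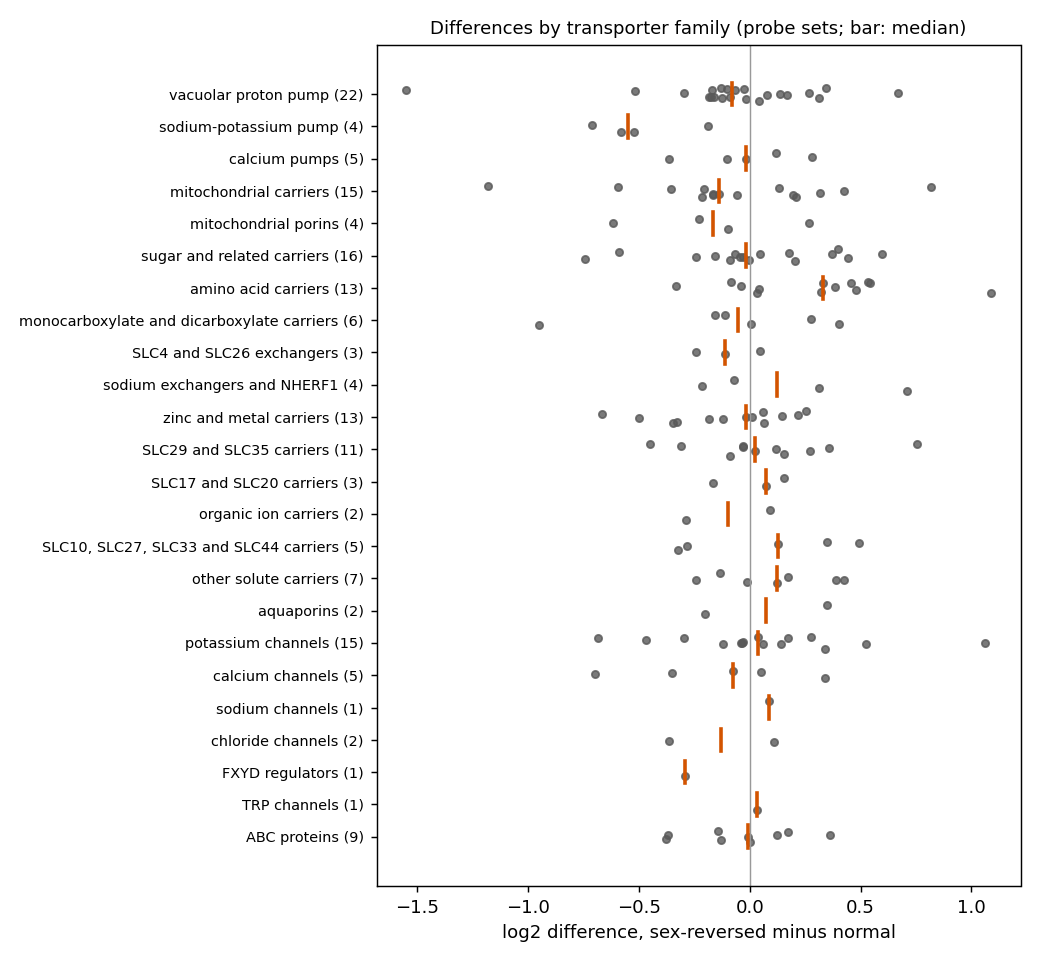
Log2 difference, sex-reversed minus normal, of every transport probe set (points, jittered vertically) by family, with the number of probe sets in brackets and the family median as a bar. The 4 sodium-potassium pump probe sets all lie left of 0 and 10 of the 13 amino acid carriers right of it, and no point passed the limma test.

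Sugar carriers and their relatives (slc2, slc5, slc37 and slc45 genes, 16 probe sets) were 7 higher and 9 lower, with a median of -0.017. The insulin-responsive glucose carrier gene of muscle and fat, slc2a4.L, read 2.51, 3.11 and 3.06 in sex-reversed testes, against 4.01, 3.35 and 3.55 in normal testes. Each sex-reversed testis lay below each normal one, at -0.74 (95% interval -1.38 to -0.11; limma adjusted p = 0.997, n = 3 per group), though at values low against the array medians of 5.25 to 5.31. Muscle markers, skeletal and smooth together, had a median on the other side of 0, at 0.50. The fat body and liver list (4 of 8 genes measured, 7 probe sets, 3 higher and 4 lower) had a median of -0.23. It summed to 205 to 339 on the sex-reversed and 314 to 550 on the normal arrays. The brightest probe set of that list, plin2.S, had a mean of 7.89 and differed by -0.71 with overlapping groups. The next brightest, cebpa.L, had a mean of 4.93. On the higher side serpina1.L did not overlap, at 0.47 and a mean of 2.94, and ttr.L and cebpa.S overlapped, at 0.40 and 0.44. The part of these tissues in the value of slc2a4.L was not tested. The general glucose carrier gene slc2a1.L had 2 probe sets, at -0.087 (95% interval -1.11 to 0.94) and -0.59 (95% interval -1.39 to 0.21). Of the slc37 genes, slc37a3.L gave 8.01, 7.92 and 8.02 in sex-reversed testes, against 8.31, 8.25 and 8.11 in normal testes. Its groups did not overlap, at a difference of -0.24 (95% interval -0.69 to 0.21). The glucose 6-phosphate carrier gene slc37a4.L differed by 0.047. The groups of slc2a10.S (0.40) and slc45a3.L (0.18) also did not overlap, with sex-reversed testes on the higher side and means of 3.90 and 3.38. The inositol carrier gene slc5a11.L ranged from 5.31 to 7.79, both ends in normal testis, and differed by 0.44.

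Potassium channel subunits (15 probe sets) were 8 higher and 7 lower, with a median of 0.04. The inward rectifier subunit gene kcnj16.S had the smallest unadjusted p of all 169 members (0.00708 in limma, adjusted p = 0.997, n = 3 per group). Its values were 7.18, 6.85 and 6.79 in sex-reversed testes, against 6.08, 5.34 and 6.23 in normal testes. All sex-reversed testes lay above all normal ones, at 6.94 ± 0.21 in sex-reversed testes and 5.88 ± 0.48 in normal testes (SD, n = 3 each), a difference of 1.06 (95% interval 0.39 to 1.74), or 0.79 without normal replicate 2. Its protein forms channels with that of kcnj10.L in mammalian kidney and glia, and kcnj10.L differed by 0.17 (95% interval -0.33 to 0.67), with overlapping groups. The 7 probe sets of the 3 kidney marker genes measured, mostly of pax2.L, were 4 higher and 3 lower with a median of 0.022. None had a mean above the median of all probe sets. Among them pck1.L was higher in sex-reversed testis without overlap, by 0.60 at a mean of 3.06, and pck1.S differed by 0.05 with overlap. The part of kidney cells in the value of kcnj16.S was not tested. The brightest potassium channel probe set, of the voltage-gated gene kcna4.S, gave 7.45, 7.55 and 7.50 in sex-reversed testes, against 7.25, 7.18 and 7.65 in normal testes, a difference of 0.14. Its relatives kcna3.S and kcna2.L differed by -0.04 and -0.12. Both probe sets of the background channel gene kcnk5.S lay above 0, at 0.28 and 0.34, but at -0.061 and -0.033 without normal replicate 3; the first was also below 0 without sex-reversed replicate 1 (-0.02) and the second without sex-reversed replicate 2 (-0.003). The related gene kcnk6.L lay at -0.69 (95% interval -1.54 to 0.17), -0.28 without sex-reversed replicate 2. The voltage-gated gene kcnq1.L and its partner subunit gene kcne1.L differed by 0.52 and 0.059.

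Calcium, sodium, chloride and TRP channels and aquaporins were mostly measured at low values. Among the 5 calcium channel probe sets, one of the pore subunit gene cacna1a.S read 2.50, 2.42 and 2.46 in sex-reversed testes, against 3.05, 3.70 and 2.72 in normal testes, a difference of -0.70 (95% interval -1.36 to -0.039). The groups did not overlap, the lowest values of the arrays were 1.93 to 2.09, and the brighter probe set of cacna1a.S lay on the other side, at 0.34 with overlapping groups. The skeletal muscle channel genes cacna1s.S and cacng1.L had means of 3.42 and 3.26 and differed by -0.35 and 0.05. Brighter was trpc1.L, a cation channel of the TRP family, at 7.32, 7.14 and 7.30 in sex-reversed testes, against 7.22, 6.93 and 7.50 in normal testes, a difference of 0.031 (95% interval -0.50 to 0.56). The aquaglyceroporin gene aqp3.L gave 3.61, 3.56 and 3.57 in sex-reversed testes, against 3.65, 3.88 and 3.81 in normal testes; the groups did not overlap, but the difference was -0.20 (95% interval -0.65 to 0.25). The other water channel gene, aqp11.L, differed by 0.35 (95% interval -0.34 to 1.03), and the chloride exchanger and channel genes clcn3.S and clic4.S by -0.37 and 0.11. The neuronal sodium channel gene scn1a.S had a mean of 2.66. With no measure of signal over background, a small difference at such levels does not show that both kinds of testis are alike.

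Among metal carriers and the slc29 and slc35 genes, the groups did not overlap for slc39a9.S (1 of 13 metal carriers) and slc35f2.L (1 of 11 slc29 and slc35 probe sets). Over all probe sets the share was 9.63%. Metal carriers (13 probe sets) were 6 higher and 7 lower with a median of -0.018. The zinc carrier gene slc39a9.S read 2.88, 2.96 and 2.95 in sex-reversed testes, against 3.86, 3.26 and 3.17 in normal testes, without overlap at -0.50 (95% interval -1.07 to 0.071), and its L copy lay at -0.35 with overlapping groups, sex-reversed replicate 2 being the lowest array. One of the largest spreads was that of slc41a3.L, a magnesium carrier gene, at 4.60, 5.33 and 6.73 in sex-reversed testes, against 7.18, 4.88 and 6.59 in normal testes, a difference of -0.66 (95% interval -2.31 to 0.98). The slc29 and slc35 genes (11 probe sets), grouped by name and not by what they carry, were 6 higher and 5 lower with a median of 0.023. Among them slc35f2.L separated the groups, at 4.78, 5.15 and 5.10 in sex-reversed testes, against 4.63, 3.74 and 4.41 in normal testes, a difference of 0.75 (95% interval 0.094 to 1.41; limma adjusted p = 0.997, n = 3 per group). The nucleoside carrier gene slc29a1.S held both its extremes in normal testis, at 8.70, 8.05 and 8.14 in sex-reversed testes, against 6.28, 9.46 and 8.08 in normal testes, and differed by 0.36 (95% interval -1.31 to 2.02). Among dicarboxylate carriers, slc13a2.S gave 5.87, 5.84 and 7.66 in sex-reversed testes, against 7.89, 6.50 and 7.83 in normal testes. Sex-reversed replicates 1 and 2 and normal replicate 2 were low and the others high, and the difference was -0.95 (95% interval -2.31 to 0.40). The gene slc66a1l.L, a relative of a lysosomal amino acid exporter gene, had means of 3.30 ± 0.17 in sex-reversed testes and 2.88 ± 0.067 in normal testes (SD, n = 3 each) without overlap, a difference of 0.43, and the drug exporter gene abcb1.L spread from 3.43 to 6.14 within normal testis, with a difference of -0.38.

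The remaining families, which are small, are given by their counts and brightest or best known genes, whose groups all overlapped. Carriers of lactate and dicarboxylates (6 probe sets) were 3 higher and 3 lower, and the lactate carrier genes slc16a1.S and slc16a3.L, which serve the exchange of lactate between cells, differed by -0.16 (95% interval -0.89 to 0.57) and -0.11 (95% interval -0.80 to 0.58). Of the 3 slc4 and slc26 probe sets, slc4a1.L, the band 3 gene of red blood cells, had a mean of 3.35 and differed by -0.11. It is also on the list of red blood cell markers (13 probe sets of 8 genes). Of these 13, 11 were lower in the mean of the sex-reversed arrays, at a median of -0.28. Over all probe sets 51.3% were higher. The haemoglobin genes hba3.L and hba1.S, at means of 2.94 and 4.33, differed by -0.10 and -0.51 with overlapping groups. The groups did not overlap for ank1.S, at -0.99, and for 1 probe set of tal1.S, at 0.88. The brightest of the slc4 and slc26 probe sets, that of slc4a11.L, differed by 0.044 (95% interval -1.23 to 1.31). Of the 2 probe sets for the scaffold gene slc9a3r1.L, the brighter gave 7.42, 7.01 and 7.50 in sex-reversed testes, against 7.29, 7.88 and 7.41 in normal testes, a difference of -0.21. The vesicular monoamine carrier gene slc18a1.S was bright among the remaining carriers, at 7.06, 7.60 and 8.07 in sex-reversed testes, against 7.73, 7.22 and 7.81 in normal testes, a difference of -0.011 (95% interval -0.74 to 0.72). The phosphate carrier gene slc20a1.L and the choline carrier gene slc44a1.L differed by 0.16 and 0.13, and the carnitine carrier gene slc22a5.L by -0.29. Among ATP-binding cassette genes (9 probe sets, 4 higher and 5 lower), the peroxisomal fatty acid carrier gene abcd3.S differed by 0.36 (95% interval -0.40 to 1.12) and the retinoid carrier gene abca4.L by 0.12.

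Over all transport genes, the groups did not overlap for 17 of 169 probe sets (10.1%), against 9.63% of all 11485. All sex-reversed arrays lay above all normal ones for 9 members (5.33%, against 5.37% of all) and below them for 8 (4.73%, against 4.26%). The members' shares were thus close to those of the whole table. Of the 17, slc37a3.L and, through another probe set, atp6v0c.L were among the 20 genes with the highest signal, and 4 had a mean above the median of all probe sets (kcnj16.S, atp1b3.L, slc37a3.L and the probe set of atp6v0c.L). With any 1 array left out, the sign of the difference stayed the same for all 17. This follows from the choice, since groups that do not overlap cannot change sign when 1 value is dropped.

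**Figure D4:**
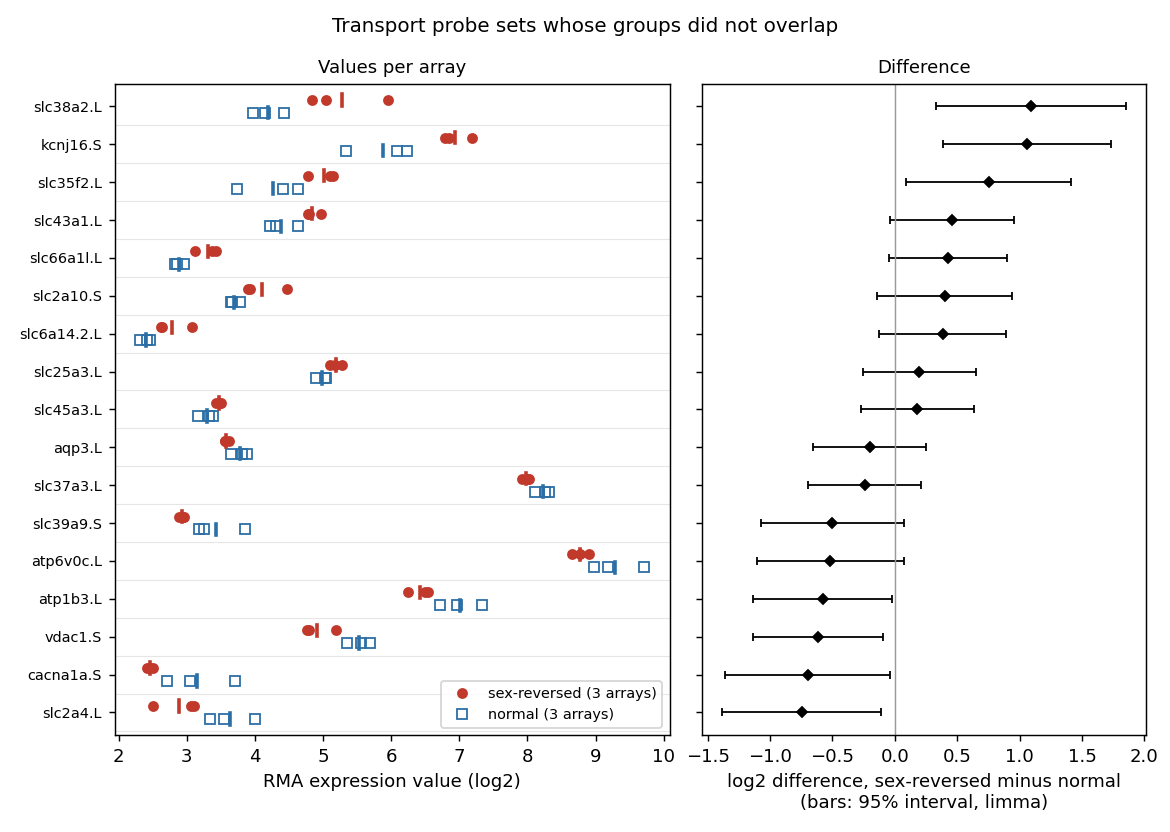
Left, log2 RMA values of the 17 transport probe sets whose groups did not overlap (filled circles, 3 sex-reversed testes; open squares, 3 normal testes; short bars, group means); right, the log2 difference, sex-reversed minus normal, with its 95% interval from limma. The 9 probe sets above aqp3.L are higher and the 8 from aqp3.L downward lower in sex-reversed testis; the intervals of 3 of the higher and 4 of the lower ones exclude 0 before adjustment.

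The members that varied most did so within groups. The range over the 6 arrays was at least 2 log2 units for 17 of 169 members (10.1%), against 8.18% of all probe sets. A probe set of atp6v1c1.L, a V1 subunit gene, spanned the most, at 6.87, 7.59 and 3.23 in sex-reversed testes, against 6.03, 7.34 and 4.09 in normal testes. Replicate 3 was the low end in each group, so the difference was 0.079 with a 95% interval of -2.76 to 2.91. The other 2 probe sets of atp6v1c1.L, with means of 8.15 and 8.08, spanned far less, 0.96 and 0.66 log2 units against 4.35, with overlapping groups as well. The second probe set of slc41a3.L, at a mean of 2.62, spanned 0.44 log2 units against 2.59 for the first. Its mean lay close to the lowest values of the arrays (1.93 to 2.09), so its small span does not bear on that of the first. In the glutamate carrier relative slc25a22l.S the range came from 1 array, normal replicate 2 at 6.09 beside 3.38 to 4.25 on the others.

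**Figure D5:**
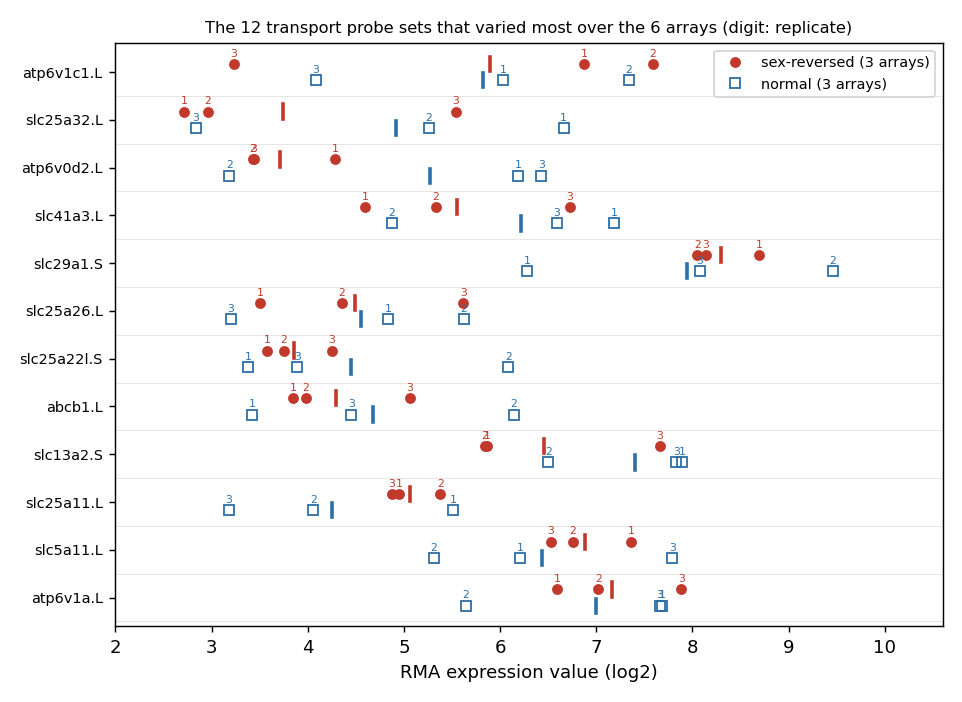
Log2 RMA values of the 12 transport probe sets with the largest SD over the 6 arrays (filled circles, sex-reversed; open squares, normal; the digit is the replicate number; short bars are group means). For each of the 12 the groups overlap, and the wide spread lies within groups, as in atp6v1c1.L, where replicate 3 of each group is lowest.

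Genes measured more than once did not always give 1 direction. Of 21 genes with several member probe sets or copies, 10 had differences of 1 sign in all of them. For 8 genes the member probe sets carried 2 symbols. The differences had 1 sign for 3 of them, atp1b3 (all 3 lower), atp6ap2 (both lower) and slc39a9 (both lower), each with an L and an S copy. This rested on single arrays: without normal replicate 2 atp6ap2.L lay at 0.041, atp6ap2.S at 0.06 (and at 0.02 without sex-reversed replicate 1) and 1 probe set of atp1b3.S at 0.23, and without sex-reversed replicate 2 slc39a9.L lay at 0.19. Opposite signs were seen for slc25a11, slc25a17, slc30a6, slc35b1 and slc1a5. For slc35b1 the symbols were an L copy and one with neither ending, so no S copy was labelled. For slc25a17, a peroxisomal carrier gene, the L copy lay at 0.32 and the S copy at -0.17, both within overlapping groups. Cross-hybridisation between copies was not tested, so a difference between L and S values is not assigned to a copy.

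Other genes of ion and solute transport that the rule leaves out gave 98 probe sets, none of which passed (0%, as over all). In means 47 were higher and 51 lower with a median of -0.018, and the groups did not overlap for 8 (8.16%, against 9.63%). The genes below were picked from this list after their values were seen. The bestrophin chloride channel gene best2.S gave 4.72, 4.70 and 4.54 in sex-reversed testes, against 4.10, 3.74 and 3.55 in normal testes, without overlap at 0.86 (95% interval 0.33 to 1.38). A probe set of sfxn2.S, a mitochondrial sideroflexin gene, read 4.50, 4.87 and 4.91 in sex-reversed testes, against 4.19, 3.42 and 3.04 in normal testes, a difference of 1.21, while 3 other probe sets of sfxn2.S lay at 0.031, 0.69 and 0.11 with overlapping groups. Both gja1.L and gja4.L encode gap junction proteins: the brighter probe set of gja1.L gave 8.38, 8.67 and 8.56 in sex-reversed testes, against 8.87, 8.95 and 8.87 in normal testes, a difference of -0.36, and gja4.L gave 4.12, 4.41 and 3.93 in sex-reversed testes, against 4.76, 4.81 and 4.62 in normal testes, a difference of -0.58; neither overlapped. In mfsd5.S, which encodes a carrier-like membrane protein, 2 probe sets ran against each other. One read 6.14, 6.56 and 6.64 in sex-reversed testes, against 4.60, 3.95 and 6.37 in normal testes, and the other 4.35, 4.96 and 5.17 in sex-reversed testes, against 7.50, 7.42 and 4.08 in normal testes. On normal replicates 1 and 2 the first was low and the second high, and another probe set of mfsd5.S lay between 6.34 and 7.22 on all arrays. In the order given, the 3 differences were 1.47, -1.51 and -0.36.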

How the data were processed

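RNA of 6 hybrid testis samples, 3 sex-reversed and 3 normal, was measured on 1 Affymetrix Xenopus laevis array each. The authors deposited log2 values from RMA, which the submitters' processing notes name. The sources used here do not give its version, options or chip definition. No scanner files or detection calls were used here, so signal over background was not measured. Gene symbols came from the platform annotation, which names 1 symbol for 6798 of 11485 probe sets, several for 110 and none for 4577; unnamed probe sets may include further transport genes.

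All 11485 probe sets were fitted with limma 3.58.1 in R 4.3.3 (lmFit and eBayes, sex-reversed minus normal, no covariate, two-sided). P-values were adjusted over all of them by Benjamini-Hochberg, with a threshold of 0.05. The fit was tested on simulated data. Groups did not overlap where all 3 arrays of a group lay above all 3 of the other. The members, families, partner genes and marker lists were chosen with earlier results of these data known.

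Named probe sets were the 20 genes with the highest mean, up to 12 per direction whose groups did not overlap, all with a difference of at least 1, the 12 with the largest SD, the brightest of each family with at least 3 probe sets, and all aquaporins, porins, sodium-potassium and calcium pumps; other members were named for their role after their values were seen. Whether replicate numbers pair the samples was looked at by a correlation of deviations from the group mean, which cannot settle it with 3 arrays a group. The alternatives were other array scalings, filters on level, other limma options, a replicate block and leaving out each array.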

Additional observations from a re-analysis of the deposited data

How the results depend on the processing

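Members past the threshold and their transport partners past it numbered 0 in every setting run: other array scalings (medians centred, quantile, cyclic loess), filters on level, 1 probe set per gene, no _x_at or _s_at probe sets, trend and robust limma, array weights, no moderation, a looser adjusted p of 0.1 for the members, and 1 array left out. Among all probe sets tested these settings called 0 to 6, and 6 without sex-reversed replicate 3. With the replicate block the members and partners called were again 0. Correlations of deviations were -0.00684, -0.0247 and 0.139 for replicates 1, 2 and 3, against -0.16 to 0.152 for unlike numbers. With 3 arrays a group they cannot show whether the numbers pair the samples. The count of groups without overlap has no value under the block. The median difference of the members lay between -0.037 and 0.016 with 1 array left out. Members whose groups did not overlap were 17 of 169, but 4 of 73 above the median level (5.48%, against 9.14% of all probe sets) and 10 of 129 above its 25th percentile (7.75%, against 9.33%). With 1 array left out they were 28 to 41 (16.6% to 24.3% of members), beside 17.6% to 20.8% of all probe sets, since 2 arrays separate from 3 more often. The highest shares, 24.3% of members and 20.8% of all probe sets, came without sex-reversed replicate 3. The sign of abcf1.L turned with centred medians (-0.00085) and that of slc18a1.S with quantile normalization (0.0091). With 1 array left out, 53 of 63 named probe sets (156 of 169 members) moved over 1.5 times or turned in sign, and 28 of the 63 turned. Without turning, slc25a11.L ran over 0.28 to 1.45, slc41a3.L over -1.33 to -0.18, slc13a2.S over -1.55 to -0.64 and the brighter probe set of atp1b3.S over -0.79 to -0.082. The 28 ran over -1.0 to 0.36 for abcb1.L, -0.52 to 0.12 for abce1.S, -0.12 to 0.085 for abcf1.L and -0.51 to 0.23 for atp1b3.S. Likewise it ran over -0.24 to 0.099 for atp2a1.S, -0.053 to 0.41 for atp2a2.S, -0.23 to 0.26 for atp2b1.L and -0.51 to 0.51 for atp6v1a.L. The range was -0.13 to 0.15 for atp6v1b2.S, -0.13 to 0.35 for atp6v1c1.L at a mean of 8.15, -0.79 to 1.41 for atp6v1c1.L at a mean of 5.86 and -0.33 to 0.085 for atp6v1d.L. Further ranges were -0.017 to 0.58 for cacna1a.S, -0.26 to 0.25 for slc18a1.S, -1.13 to 0.22 for slc25a22l.S and -0.73 to 0.48 for slc25a26.L. It was -0.47 to 1.12 for slc29a1.S, -0.22 to 0.16 for slc31a2.S, -0.12 to 0.21 for slc35a2.L and -0.27 to 0.36 for slc35b2.S. The same step gave -0.15 to 0.20 for slc37a4.L, -0.16 to 0.37 for slc43a2.L, -0.14 to 0.29 for slc44a1.L and -0.51 to 0.47 for slc4a11.L. Last came -0.12 to 1.12 for slc5a11.L, -0.43 to 0.00036 for vdac1.S, -0.20 to 0.071 for vdac2.S and -0.014 to 0.50 for vdac3.L. The cause was not tested. The atp1b3.S, vdac1.S, abce1.S and cacna1a.S values are those of 1 probe set each, for vdac1.S and cacna1a.S the one whose groups overlapped. With 3 arrays a group the number of arrays limits the precision.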
